A study of Mus musculus with 5 samples.

Results

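The genes described here encode RNA-binding and splicing proteins: those in the deposited array table whose symbol starts with Rbm, Ddx, Dhx, Hnrnp, Srsf, Sf3, Prpf, Snrp, Lsm or Celf. Ddx58 and Dhx58, which encode cytoplasmic sensors of viral RNA, were left out by the rule. The rule found 38 genes among the 2190 named genes of the table, measured by 54 of its 3373 probe sets. Where a gene had several probe sets, the brightest on average across the 5 arrays stood for it. The rule reads symbols, but only genes that separated the groups are in the table, so the measured differences bear on which genes are described.

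Mesenchymal stem cells (MSC), stromal cells of mouse bone marrow, were purified and grown as primary cultures in Mesencult medium. One group of 3 arrays held MSC cultured alone. The other group of 2 arrays held MSC kept for 48 h in a transwell with purified T cells, 10 for each MSC, that had been activated in vitro with antibodies to CD3 and CD28. A transwell holds the 2 populations apart by a porous membrane. The labels give each array as a biological repetition and name no strain, age, sex or genotype, and no batch. They do not say whether repetitions came from separate animals, so p-values measure the spread between these arrays. The comparison asks what exposure to activated T cells does to gene expression in MSC.

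Most transcripts are spliced by the spliceosome, in which the U1 and U2 small nuclear ribonucleoproteins (snRNPs) mark the start of an intron and its branch point and the U4, U5 and U6 snRNPs join to form the catalytic centre. SR proteins, encoded by the Srsf genes, mostly promote the use of exons they bind, and heterogeneous nuclear ribonucleoproteins (hnRNPs) coat the nascent transcript and often oppose them. RNA helicases of the DEAD-box (Ddx) and DEAH-box (Dhx) families drive rearrangements of the spliceosome and the assembly of ribosomes. Many SR and hnRNP genes limit their own level by alternative splicing of their transcripts into forms that are degraded.

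Every gene in the table was separated between the groups, and this limits each count below. In all 3373 probe sets the co-culture arrays lay together above or together below the arrays of MSC alone, with a gap of at least 0.34 on the log2 scale. Values are log2 expression levels made with RMA, and a difference of 1 is 2-fold. All 38 genes passed limma's test at an adjusted p of 0.05, and so did 100.0% of the 2190 genes, so passing says nothing about these genes. No gene outside the table was analysed. What remains to describe is direction, size and the spread over arrays. Size and spread are limited by the same separation, since differences may be too large and errors too small.

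Array medians over the table were 7.61 to 7.64 in MSC alone and 7.42 to 7.5 in co-culture. Of 13 MSC markers 7 were in the table, with mean levels of 10.61 to 10.77 in MSC alone and 9.70 to 9.88 in co-culture. Of these, 5 were lower in co-culture, among them Col1a1, with a log2 difference of -3.94. The 2 others, Pdgfra and Vcam1, were higher, by 3.77 and 2.91. None of 17 T cell markers was in the table (0 of 17), so T cell RNA was not assessed. Of 16 macrophage and monocyte markers only Mpeg1 and Ctss were measured. Their mean level was 3.74 to 4.24 in MSC alone and 8.02 and 7.35 in co-culture replicates 1 and 2, and their part in the results below was not tested. In whole cultures a smaller share of cells that express a gene and less RNA per cell cannot be told apart.

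The promoters of the genes are shown first, since members that changed together below can be set beside the sequence at their starts. RefSeq promoter windows (GRCm38.p6, 250 bases before to 50 after the start) were given for 34 of the 38 genes. Some genes have windows at several starts, and a gene was counted when any of its windows held the motif. Shares of genes are therefore not on the same footing as shares of windows. Searched on both strands, the core of the interferon-stimulated response element (GAAA, any 2 bases, GAAA) was found in 4 of these 34 genes and in 3.44% of 32851 windows; it was present in 5.22% of the 1742 genes of the table that have a window. The 4 genes were Rbm43 and Ddx60, which were higher in co-culture, and Rbm28 and Rbms3, which were lower. The stretches before the start that hold it are shown 5′ to 3′ on the gene's strand, with the matches in capitals. Each comes from the gene's first window with a match there, and other starts of the gene may lack it.
Rbm43, chr2:51935328-51935413, minus strand: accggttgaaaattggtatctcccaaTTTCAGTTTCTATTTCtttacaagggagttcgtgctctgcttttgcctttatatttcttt
Ddx60, chr8:61927984-61928086, plus strand: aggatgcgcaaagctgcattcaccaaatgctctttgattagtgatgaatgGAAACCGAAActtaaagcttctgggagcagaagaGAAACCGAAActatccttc
Rbm28, chr6:29164729-29164838, minus strand: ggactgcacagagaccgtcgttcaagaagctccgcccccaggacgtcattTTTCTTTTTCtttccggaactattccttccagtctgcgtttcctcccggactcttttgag
Rbms3, chr9:117252577-117252686, minus strand: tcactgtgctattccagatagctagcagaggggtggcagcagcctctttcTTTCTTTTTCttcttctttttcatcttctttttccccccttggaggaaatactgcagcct
Ddx60 holds 2 matches on its own strand, the first beginning at position -53 from the start. Rbm43 holds 2 overlapping matches on the opposite strand, the first at position -224. Rbm28 and Rbms3 each hold 1 match on the opposite strand, within runs of T and C. A match describes letters and no binding was measured.

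The CCAAT box, whose letters are its name, was found in 10 of the 15 genes with lower expression and in 7 of the 19 genes with higher expression that have a window. It was present in 43.7% of the table's genes with a window and in 37.4% of all windows. Windows of all 3 Srsf genes held one, and so did those of Hnrnpk, Hnrnpa0, Hnrnpa2b1 and Hnrnpc. Not all matches lie before the start. Among genes with lower expression, that of Srsf1 begins at position -3 and spans the start, and that of Lsm6 begins at position 6. In Prpf38a, which was higher, a match beginning at position -2 also spans the start. The motif was singled out of 7 searched after its matches were seen. Stretches of Hnrnpk, an hnRNP, and Srsf3, an SR protein gene, are shown in the same way.
Hnrnpk, chr13:58402158-58402262, minus strand: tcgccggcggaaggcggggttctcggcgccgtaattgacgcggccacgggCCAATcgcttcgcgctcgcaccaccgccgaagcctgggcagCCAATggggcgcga
Srsf3, chr17:29032552-29032656, plus strand: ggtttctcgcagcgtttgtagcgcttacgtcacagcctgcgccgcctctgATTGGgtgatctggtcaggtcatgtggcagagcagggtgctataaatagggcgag
In Srsf3 the box lies on the opposite strand. The gamma-activated site, TTCNNNGAA, was found in 3 of the 34 genes (8.78% of the table's genes), the TATA box, TATAAA, in 6 (7.63%), the ETS site, CCGGAAG, in 6 (18.7%), the YY1 site, AAGATGGCG, in 1 (3.67%) and the NRF1 site, GCGCAT followed by GCGC, in 0 (2.30%). GC content was taken from the most GC-rich window of each gene. Its median over genes was 62.3% for those with higher and 61.0% for those with lower expression, against 63.3% for the table's genes.

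Of the 38 genes 23 were higher and 15 lower in co-cultured MSC, against 48.3% higher and 51.7% lower among the 2190 genes. Thus 60.5% of the genes were higher. Their median difference was 0.68 on the log2 scale, beside -0.61 over all named genes, and their median absolute difference was 1.01, beside 1.13. Because all genes are separated, a median falls on the side of the majority and exaggerates a small imbalance of directions. Mean levels of the 38 genes were 8.29, 8.21 and 8.17 in MSC alone and 8.38 and 8.37 in co-culture. Those of all named genes were 7.9, 7.89 and 7.87 alone and 7.84 and 7.76 in co-culture. At least 2-fold differences were found in 9 genes upward (23.7%, against 26.3% of all named genes) and 10 downward (26.3%, against 35.0%). With each array centred on its median, which moves co-culture up by 0.16 against MSC alone, the split of these 2-fold differences was 15 upward and 5 downward, and that of all named genes turned as well, to 33.0% upward and 28.4% downward. Centring could not turn the direction of any of the 38 genes, because the smallest absolute difference, 0.49 in Sf3a2, exceeds the shift of 0.16. Ranked by absolute difference among the 2190 genes, Sf3b1 came first of the 38, at place 240.

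The families differed in how their genes were divided. All 3 Srsf genes and 4 of 5 Hnrnp genes were lower, as was 1 of 3 Sf3, 1 of 2 Lsm, 3 of 10 Rbm, 2 of 9 Ddx and 1 of 2 Dhx genes. Both Prpf genes, Snrpa1 and Celf1 were higher. Outside the Srsf and Hnrnp families, which were joined after their directions were seen, 22 of 30 genes were higher. The mean level of the 8 Srsf and Hnrnp genes was 9.99, 9.76 and 9.95 in MSC alone and 9.15 and 9.02 in co-culture. Both co-culture arrays were thus below the controls. Because all genes are separated and most of these 8 were lower, this order adds nothing to the counts. These family counts are descriptions, and whether families differ from each other or from the table was not tested.

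**Figure D1:**
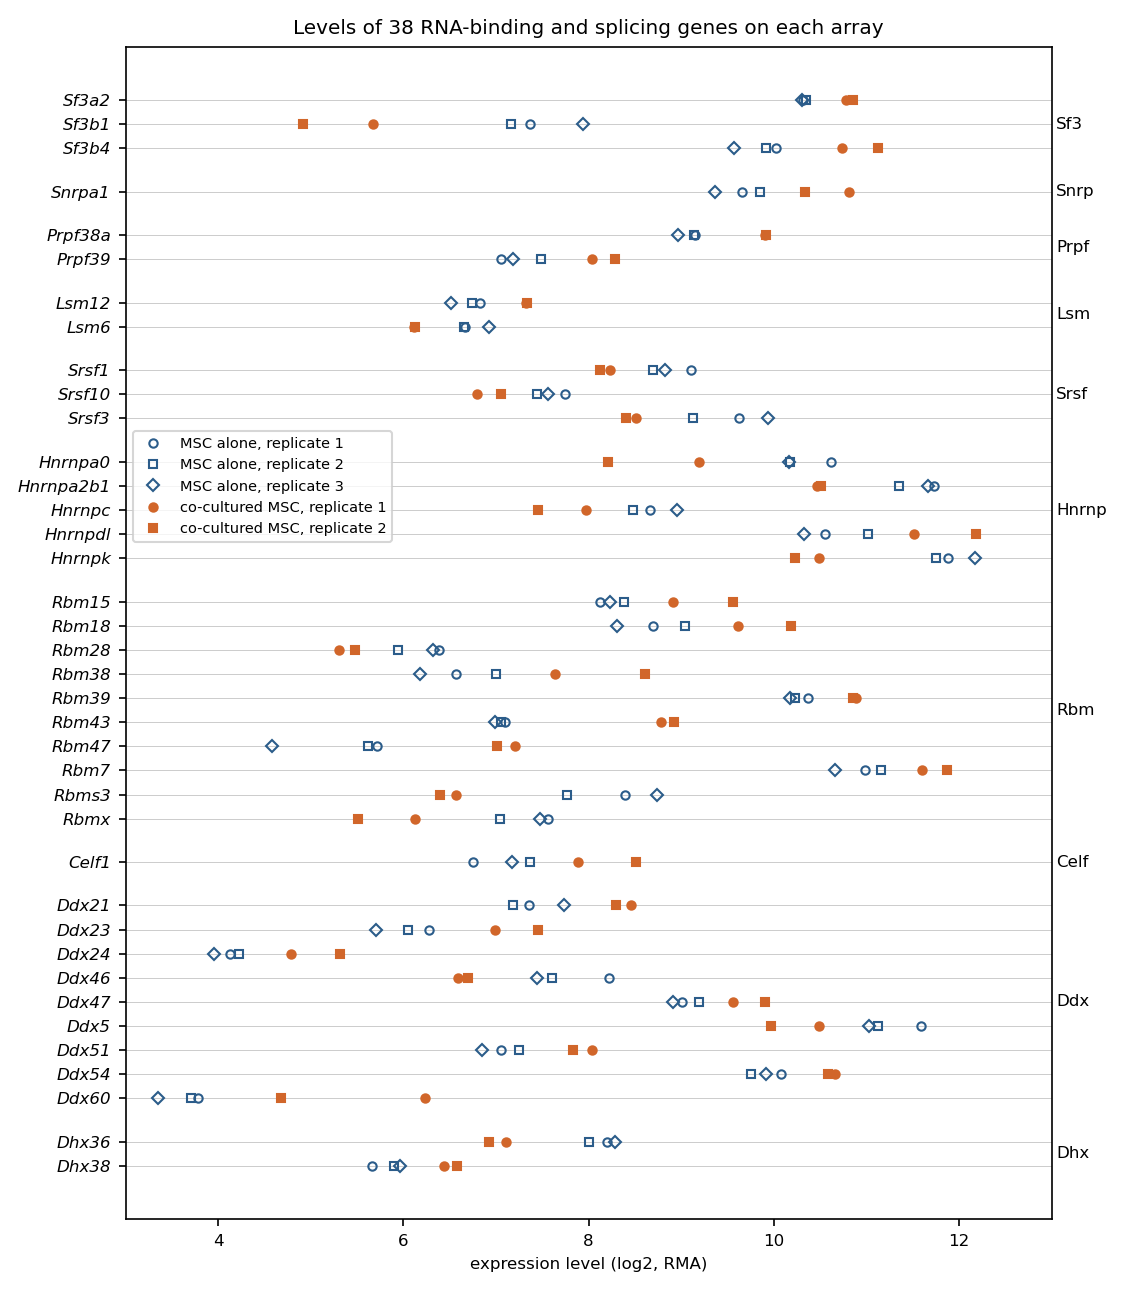
Log2 expression level (RMA) of the 38 genes on each array, grouped by family. Open blue symbols are the 3 arrays of MSC alone and filled orange symbols the 2 co-culture arrays. In every gene the orange symbols lie on one side of the blue ones, a separation shared by the whole table; they lie to the left in all 3 Srsf genes and in 4 of 5 Hnrnp genes.

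**Figure D2:**
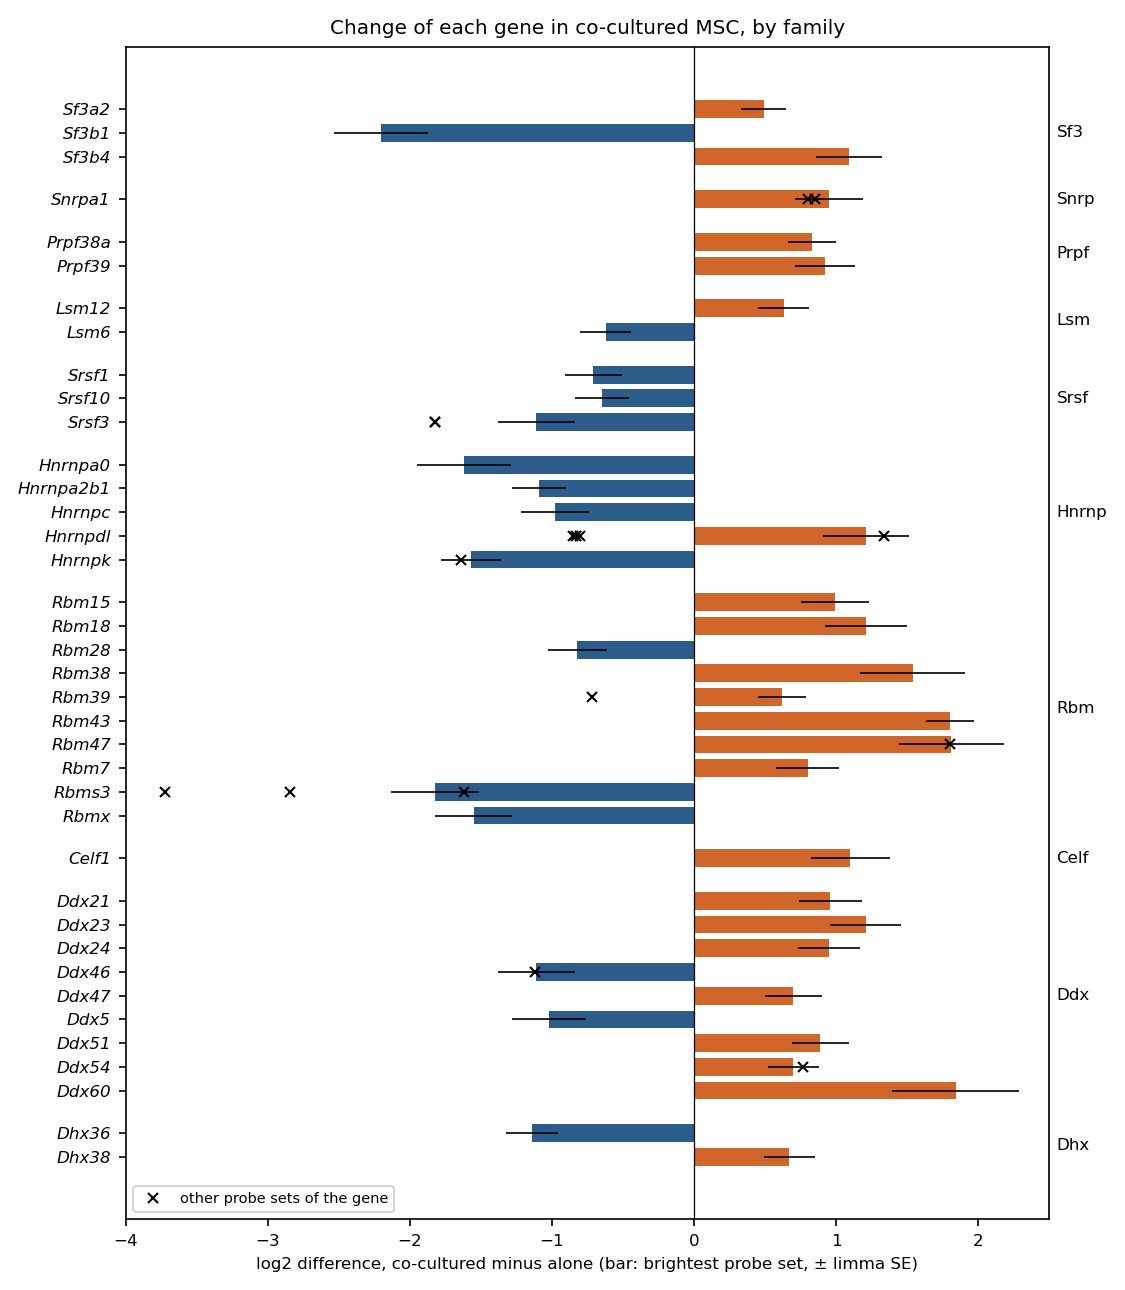
Log2 difference, co-cultured minus alone, for each gene's brightest probe set (bars, ± limma's SE), with further probe sets of the same gene as crosses. Sf3b1 has the longest downward bar, at -2.20, and Ddx60 the longest upward bar, at 1.84. For Hnrnpdl and Rbm39 crosses lie on the opposite side of 0 from the bar.

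Among core parts of the spliceosome, components of the U2 snRNP moved in different directions. Sf3b1, the large SF3b subunit that holds the branch point region of the intron, had levels of 7.37, 7.16 and 7.94 in MSC alone and 5.67 and 4.92 in co-culture. Both co-culture arrays lay below all controls by at least 1.5, beside a gap of at least 0.34 in the whole table. It was lower by 4.59-fold, a log2 difference of -2.20 ± 0.33 (SE; adjusted p 0.00352 in limma). Sf3b4, an SF3b subunit with RNA recognition motifs, stood at 10.02, 9.92 and 9.57 alone and at 10.74 and 11.12 in co-culture. Its rise was 1.09 ± 0.23 on the log2 scale (adjusted p 0.00617 in limma). Snrpa1, the U2 A′ protein, rose by 0.95 ± 0.24, from 9.66, 9.85 and 9.37 to 10.81 and 10.34, and its other 2 probe sets rose by 0.85 and 0.80. Sf3a2, an SF3a subunit, changed little: it was 10.32, 10.35 and 10.30 alone against 10.78 and 10.85 in co-culture. Its difference of 0.49 ± 0.16 was among the smallest in the table, ranking 2189 of 2190. For Sf3a2 limma's adjusted p was 0.0233; it was 0.0732 without MSC replicate 1, 0.0672 without MSC replicate 2 and 0.0678 without co-culture replicate 2 (range over alternatives 0.00964 to 0.0732). So 3 of the 4 U2 components were higher, against 48.3% of all named genes, and Sf3b1 was lower. The U2 components were grouped after the values were seen.

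Both Prpf genes were higher. Prpf38a, a component of the spliceosome before its activation, was at 9.15, 9.14 and 8.96 alone and at 9.90 and 9.92 in co-culture, a difference of 0.83 ± 0.17 on the log2 scale. Prpf39, a U1-associated factor, rose by 0.92 ± 0.21, from 7.05, 7.49 and 7.18 to 8.04 and 8.28. In neither gene did the arrays of the groups come within 0.5 of each other, where the smallest gap in the table is 0.34. The Lsm genes went opposite ways by nearly equal amounts. Lsm6, a member of the Lsm ring that binds U6 and that also serves mRNA decay, fell from 6.66, 6.65 and 6.92 to 6.11 and 6.13, a difference of -0.62 ± 0.18. Lsm12, an Lsm-domain protein that is not part of that ring, rose by 0.63 ± 0.18.

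The SR protein genes were all lower in co-culture. Srsf3, an SR protein that also couples splicing to mRNA export, was at 9.62, 9.13 and 9.94 in MSC alone and at 8.51 and 8.40 in co-culture. MSC replicate 2 was the lowest control, and both co-culture arrays lay below it by at least 0.63, in a table whose smallest gap is 0.34. The fall of Srsf3 was 2.16-fold, or -1.11 ± 0.27 (SE) on the log2 scale (adjusted p 0.0083 in limma). Its dimmer probe sets each fell by 1.82. Srsf1, the SR protein also called SF2 or ASF, stood at 9.11, 8.69 and 8.83 alone and at 8.23 and 8.12 in co-culture. Srsf10, an SR protein whose activity depends on its phosphorylation, was at 7.74, 7.44 and 7.56 against 6.80 and 7.05. These falls were smaller, at -0.71 ± 0.20 and -0.65 ± 0.19. For Srsf1 limma's adjusted p was 0.0124, and 0.0502 without co-culture replicate 2 (range over alternatives 0.0114 to 0.0502). For Srsf10 limma's adjusted p was 0.0145, and it was 0.0579 without MSC replicate 1 and 0.0639 without co-culture replicate 1 (range 0.0133 to 0.0639). Leaving out 1 array cannot reverse the direction of these genes, because their groups do not overlap.

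Of the hnRNP genes, Hnrnpk, Hnrnpa0, Hnrnpa2b1 and Hnrnpc were lower. Hnrnpk, which binds C-rich RNA and DNA through KH domains, was at 11.88, 11.75 and 12.17 alone and at 10.49 and 10.23 in co-culture. It fell 2.97-fold, by a log2 difference of -1.57 ± 0.21 (SE; adjusted p 0.00286 in limma), and its other probe set gave -1.64 ± 0.23. Hnrnpa0, which binds AU-rich elements of mRNA, showed a co-culture pair that was less alike: 9.19 and 8.21, against 10.62, 10.18 and 10.16. Its difference was -1.62 ± 0.33. Hnrnpa2b1, which binds RNA in splicing, transport and microRNA processing, fell from 11.73, 11.35 and 11.66 to 10.47 and 10.51, or 2.13-fold. Hnrnpc, which binds U-rich tracts of nascent transcripts, fell from 8.66, 8.48 and 8.95 to 7.97 and 7.45, or 1.98-fold. In these 4 genes the higher co-culture array was below the lowest control by 0.51 to 1.26. Every probe set of the table has a gap, of at least 0.34.

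Hnrnpdl, encoding the AU-rich element binding hnRNP D-like protein, had no single direction. Its brightest probe set rose from 10.55, 11.02 and 10.33 to 11.51 and 12.18, a log2 difference of 1.21 ± 0.30 (SE; adjusted p 0.00858 in limma), and a second rose by 1.34 ± 0.32. Its 3 remaining probe sets fell by 0.80, 0.83 and 0.85. The brightest of these was at 9.85, 9.52 and 9.50 alone and at 8.86 and 8.73 in co-culture. The mean of the rising probe sets minus that of the falling ones was 1.73, 2.54 and 1.56 in MSC alone and 3.82 and 4.27 in co-culture. A rising and a falling probe set of Hnrnpdl are annotated to the same sequence record. Of its 5 probe sets, 3 carry the suffix _s_at and can bind related transcripts.

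Rbm39, a splicing factor related to the U2AF protein that recognises the end of introns, was split in the same way. The brighter of its 2 probe sets rose from 10.37, 10.23 and 10.17 to 10.89 and 10.86, a difference of 0.62 ± 0.17. The other fell from 10.16, 9.96 and 10.01 to 9.50 and 9.15, a difference of -0.72 ± 0.19. Averaged over probe sets the difference was 0.02 for Hnrnpdl and -0.05 for Rbm39, with adjusted p of 0.935 and 0.797 in limma (lowest over alternatives 0.00387 and 0.00625). Among the 9 genes of this set with more than 1 probe set, these 2 had probe sets in both directions; in the whole table it was 40 of 588 genes, or 6.8%. Without both genes the counts were 21 higher and 15 lower, and 0 Hnrnp genes higher. Which transcripts each probe set detects was not analysed here.

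**Figure D3:**
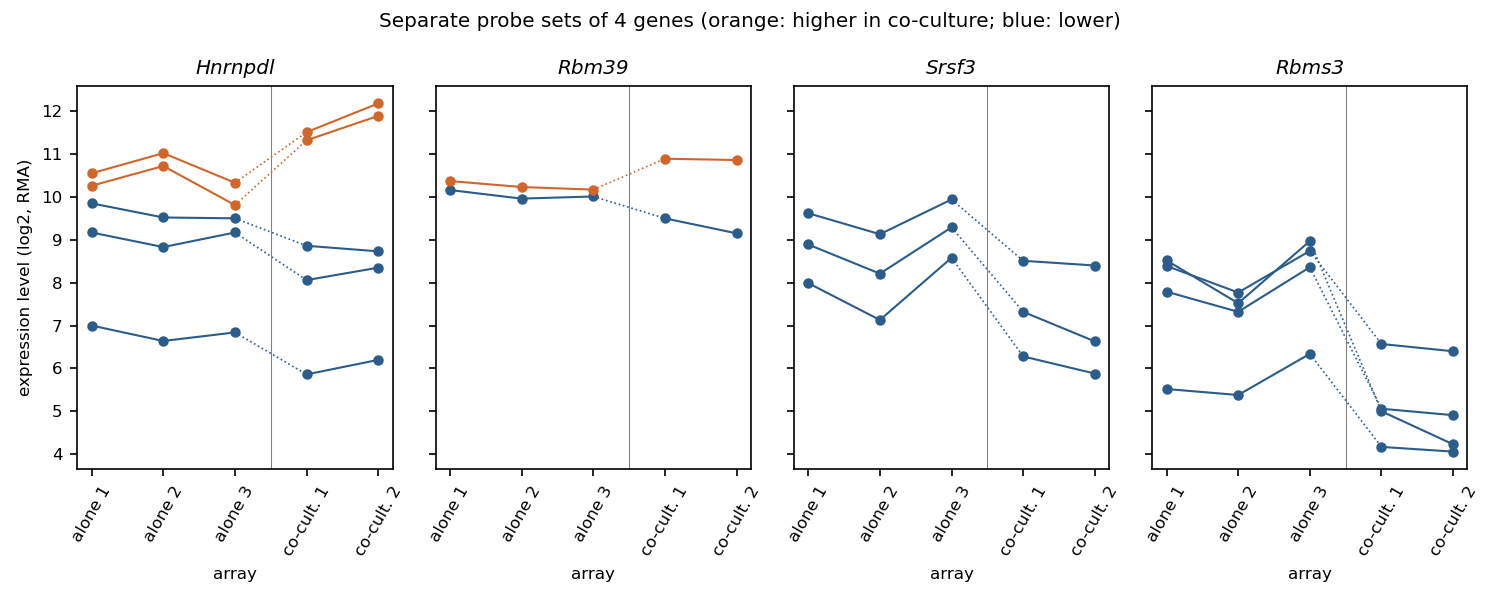
Log2 expression level (RMA) of the separate probe sets of Hnrnpdl, Rbm39, Srsf3 and Rbms3 on the 5 arrays; lines join the values of 1 probe set and the order of replicates has no meaning. Orange probe sets are higher and blue ones lower in co-culture: Hnrnpdl has 2 orange and 3 blue, Rbm39 1 of each, and all probe sets of Srsf3 and Rbms3 are lower.

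The Rbm genes, named for their RNA-binding motifs, held some of the largest changes in both directions, 7 upward and 3 downward. Rbm43 was the most even: it was at 7.10, 7.05 and 6.99 in MSC alone and at 8.78 and 8.92 in co-culture. Its rise of 3.49-fold, or 1.80 ± 0.17 (SE) on the log2 scale, had the lowest adjusted p of the 38 genes (0.00123 in limma). Rbm47, a cofactor of APOBEC1 in C-to-U editing of RNA that also regulates splicing, rose by the similar amount of 1.81 ± 0.37, from 5.72, 5.62 and 4.58 to 7.21 and 7.01. MSC replicate 3 was more than 1 below the other controls there, and without it the rise was 1.44. The second probe set of Rbm47 rose by 1.80. Rbm38, a target of p53 that acts on the stability of mRNAs, was at 6.57, 7.0 and 6.18 alone and at 7.64 and 8.61 in co-culture, and rose by 1.54 ± 0.37.

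Smaller rises were found in Rbm18, Rbm15 and Rbm7. Rbm18 rose by 1.21 ± 0.29 (SE) on the log2 scale, from 8.70, 9.04 and 8.31 to 9.61 and 10.19. Rbm15, which guides the m6A methylation complex to RNA, rose by 0.99 ± 0.24, from 8.12, 8.38 and 8.23 to 8.91 and 9.56. Rbm7, of the complex that targets nuclear RNA to the exosome, was at 10.98, 11.16 and 10.66 alone and 11.60 and 11.87 in co-culture, a difference of 0.80 ± 0.22. In all 3 genes co-culture replicate 2 was the higher co-culture array. For Rbm7, read from an _s_at probe set, limma's adjusted p of 0.0114 became 0.0559 without that array (range over alternatives 0.00701 to 0.0559).

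Rbms3, Rbmx and Rbm28 were lower. Rbms3, which binds single-stranded nucleic acid, was at 8.39, 7.77 and 8.74 alone and at 6.57 and 6.40 in co-culture, a difference of -1.82 ± 0.31 (SE; adjusted p 0.00447 in limma). Its size depended on the probe set: the others gave -1.62, -2.84 and -3.72. In co-culture these others had low means of 4.12, 4.98 and 4.62, so the sizes of their falls are uncertain. The steepest of them went from 8.52, 7.52 and 8.97 to 5.0 and 4.23. Rbmx, the X-linked hnRNP G, fell 2.92-fold, from 7.56, 7.04 and 7.48 to 6.12 and 5.51. Rbm28, a nucleolar protein, fell from 6.38, 5.94 and 6.32 to 5.30 and 5.48. Both co-culture arrays were below the lowest control by at least 0.46 in each of these genes, beside 0.34 or more in the whole table.

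Celf1, also called CUGBP1, binds GU-rich RNA in splicing and mRNA decay and was the only Celf gene of the table. It was at 6.75, 7.37 and 7.17 in MSC alone and at 7.89 and 8.51 in co-culture. The rise of Celf1 was 1.10 ± 0.28 (SE) on the log2 scale (adjusted p 0.00935 in limma), or 0.79 without co-culture replicate 2, when the adjusted p was 0.0502 in limma (range over alternatives 0.00306 to 0.0502).

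Among the helicases, those of ribosome assembly were higher. This grouping by role was made after the values were seen. Ddx21, Ddx24, Ddx47, Ddx51 and Ddx54, 5 of 5, were higher, with a median difference of 0.89 on the log2 scale. Their mean level was 7.52, 7.52 and 7.47 in MSC alone and 8.30 and 8.39 in co-culture. Ddx21, which acts in ribosomal RNA transcription and processing, had levels of 7.36, 7.18 and 7.73 alone and 8.46 and 8.30 in co-culture, and rose by 0.96 ± 0.22 (SE). Ddx51 rose by 0.89 ± 0.20, from 7.05, 7.25 and 6.85 to 8.04 and 7.83. Ddx54 rose by 0.70 ± 0.18 and, in its other probe set, by 0.77. Ddx24 was dim, with means of 4.11 ± 0.14 (SD, n = 3) alone and 5.05 ± 0.37 (SD, n = 2) in co-culture. For Ddx47 the difference was 0.70 ± 0.20, and its adjusted p in limma was 0.0136, or 0.0647 without co-culture replicate 2 (range over alternatives 0.00804 to 0.0647).

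The helicases of the spliceosome, also grouped after the values were seen, were divided. Ddx23, the U5 helicase that releases U1 from the start of the intron, rose from 6.28, 6.05 and 5.70 to 6.99 and 7.45, a difference of 1.21 ± 0.25 (SE). Dhx38, which acts between the catalytic steps, rose by 0.67 ± 0.18, from 5.66, 5.90 and 5.96 to 6.44 and 6.58. Ddx46, which acts with the U2 snRNP at the branch point, fell by 1.11 on the log2 scale, from 8.22, 7.60 and 7.44 to 6.59 and 6.70, and its other probe set fell by 1.12. Ddx46 was thus lower, as was Sf3b1 of the same snRNP, while 3 further U2 components were higher.

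Ddx5 and Dhx36 were lower and Ddx60 higher. Ddx5, a helicase of splicing, microRNA processing and transcription, was at 11.59, 11.13 and 11.03 alone and at 10.49 and 9.97 in co-culture, a difference of -1.02 ± 0.26 (SE). For Ddx5 limma's adjusted p was 0.00937, or 0.0504 without co-culture replicate 2 (range over alternatives 0.00317 to 0.0504). Dhx36, which unwinds G-quadruplexes in RNA and DNA, was at 8.20, 8.0 and 8.28 against 7.11 and 6.92. It fell 2.21-fold, a log2 difference of -1.14 ± 0.18 (SE; adjusted p 0.00408 in limma). Ddx60, an interferon-inducible antiviral helicase, was at 3.78, 3.71 and 3.35 alone and at 6.23 and 4.68 in co-culture. Both co-culture arrays were above the controls but differed from each other more (SD 1.09, n = 2) than in any other of the 38 genes. The rise of Ddx60 was 1.84 ± 0.45 (adjusted p 0.00846 in limma), 1.07 without co-culture replicate 1 and 2.62 without co-culture replicate 2. Without moderation of the spread its adjusted p was 0.0548 in limma's linear model (range over alternatives 0.00559 to 0.0548). Its mean of 3.61 in MSC alone was near the lowest value of the table, 2.62, so the size of its rise is uncertain.

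The arrays did not deviate evenly. Co-culture replicate 2 was farther from MSC alone than replicate 1 in 16 of 23 genes with higher and in 10 of 15 with lower expression. Of the 23 genes with higher expression MSC replicate 3 was the lowest control in 17, and of the 15 with lower expression MSC replicate 2 was the lowest control in 12. These counts were not made over all named genes, so whether they are particular to the 38 genes was not tested. Over the 38 genes the mean level was 8.29, 8.21 and 8.17 in MSC alone and 8.38 and 8.37 in co-culture.

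Other genes of RNA processing were taken from 7 lists, of which 58 of 255 genes were in the table. Of these 39 were higher and 19 lower, with a median difference of 0.70 on the log2 scale. Among all 2190 named genes 48.3% were higher and 51.7% lower, and the list counts below stand beside the same shares. Whether any list differs from the table was not tested. List medians, too, fall on the side of the majority, because all genes are separated. Among 19 further spliceosome and splicing factor genes 13 were higher and 6 lower. Snrnp48, of the minor spliceosome's U11/U12 snRNP, rose from 8.46, 9.19 and 8.44 to 9.98 and 11.04, a difference of 1.81 ± 0.39 (SE). Syf2 and Slu7, of the spliceosome's later steps, rose by 1.43 and 1.18. Rsrc1, Pnisr and U2surp, all with stretches rich in arginine and serine, had differences of -1.76, -1.39 and -1.25. Both measured genes of snRNP assembly were higher: Smn1, encoding the SMN protein that loads Sm rings onto snRNAs, rose by 1.03, and Coil, encoding coilin of Cajal bodies, rose by 0.85.

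In the list of splicing regulators and their kinases 5 of 7 genes were lower, and the list's median log2 difference was -0.97. One of the 2 higher genes, Srpk2, a kinase of SR proteins singled out after its values were seen, had no single direction: its brighter probe set rose by 0.56 and its other gave -1.0. Tial1, a U-rich binding regulator of splicing and translation, fell 5.54-fold, from 6.97, 6.38 and 6.45 to 4.29 and 3.97 (adjusted p 0.00141 in limma). Its co-culture mean of 4.13 is low on this scale, so the size of its fall is uncertain. Sfpq, a paraspeckle protein, was at 9.85, 8.95 and 9.27 alone and at 7.74 and 6.18 in co-culture, a difference of -2.40 ± 0.50 (SE). The difference of Sfpq became -3.18 when co-culture replicate 1 was left out and -1.61 when replicate 2 was. Mbnl1, a developmental splicing regulator that often opposes Celf1, fell by 1.65 on the log2 scale. Srpk1, a kinase of SR proteins, fell by 0.97 and Syncrip, an hnRNP, fell by 0.92, or by 1.61 in its other probe set. Dyrk1a, a kinase with splicing factors among its substrates, rose by 1.55 (2.14 without co-culture replicate 1 and 0.97 without replicate 2).

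**Figure D4:**
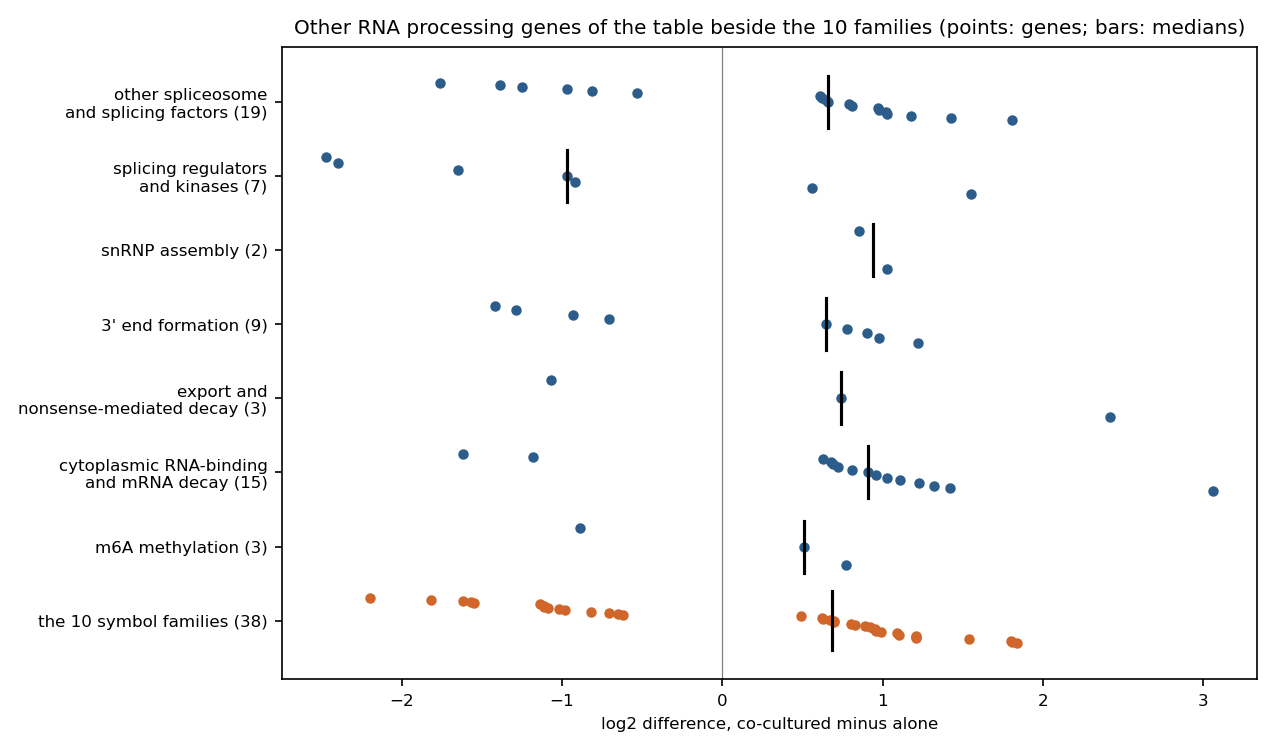
Log2 difference, co-cultured minus alone, of the 58 other RNA processing genes by list (blue points) and of the 38 genes of the symbol families (orange points); black bars are medians and the number of genes is in brackets. Splicing regulators and kinases have a median of -0.97, and cytoplasmic RNA-binding and decay genes one of 0.91.

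Among genes of cytoplasmic RNA binding and mRNA decay 13 of 15 were higher, with a median of 0.91. Zfp36, encoding tristetraprolin, which directs AU-rich mRNAs to decay, rose 8.36-fold, from 7.05, 8.56 and 7.03 to 10.30 and 10.93, a log2 difference of 3.06 ± 0.51 (SE; adjusted p 0.00436 in limma). Larp4, Patl1, of the decapping machinery, and Msi2 rose by 1.42, 1.32 and 1.23. Cnot6 and Cnot7, deadenylases of the CCR4-NOT complex, were the 2 lower genes, with differences of -1.62 and -1.18, and the other probe sets of Cnot6 gave -0.85 and -1.26. Cnot6l, a further deadenylase of that complex singled out after its values were seen, rose by 1.11, and by 1.36 in its other probe set. Of 3 genes of export and nonsense-mediated decay, Smg1, the kinase that triggers this decay, rose by 2.42 ± 0.58 in 1 probe set and by 0.76 in the other. The larger rise was 3.04 or 1.79 when co-culture replicate 1 or 2 was left out, and without moderation of the spread its adjusted p was 0.0575 in limma's linear model (range over alternatives 0.000671 to 0.0575). Smg8, a partner of that kinase, rose by 0.74, or by 0.64 without co-culture replicate 1, when its adjusted p in limma was 0.0548 (range over alternatives 0.00648 to 0.0548). Ncbp2, of the cap-binding complex, fell by 1.07.

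In mRNA 3′ end formation 5 of 9 genes were higher and 4 lower. Nudt21 and Cpsf6, the subunits of cleavage factor Im, had differences of -1.42 and -0.93 on the log2 scale, and Cstf2, of the cleavage stimulation factor, one of -1.29. Nudt21 went from 6.98, 6.56 and 7.14 to 5.78 and 5.18. Fip1l1 and Cstf1 were higher by 1.22 and 0.98, and Papola, the poly(A) polymerase, by 0.90. The control mean of Papola, 4.72, is low, so the size of this rise is uncertain too. Of 3 genes of m6A methylation, Fto, an m6A demethylase, fell by 0.89, and Zc3h13 and Ythdc1 rose by 0.77 and 0.51. For Ythdc1 limma's adjusted p was 0.0223; it was 0.081 without MSC replicate 1, 0.0589 without MSC replicate 2 and 0.0732 without co-culture replicate 1 (range over alternatives 0.00856 to 0.081). The other 197 listed genes were not analysed here.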

How the data were processed

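RNA of 5 cultures was labelled with biotin and measured on Affymetrix arrays. The authors deposited log2 probe set values made with RMA (background correction, quantile normalisation and summary of probes), per the submitters' processing notes, which name no version. RMA gives no detection call and compresses low values. The deposited table is part of an array; the sources used here do not give how its 3373 probe sets were chosen. Because all of them separate the groups, errors may be too small and differences too large.

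Groups came from the sample titles. The platform annotation gave 1 symbol for 3013 probe sets, several for 69 and no gene for 291; RefSeq (GRCm38.p6) changed 0 symbols. limma 3.58.1 (R 4.3.3; lmFit and eBayes) was fitted to all 3373 probe sets and 5 arrays, without covariates or filter, two-sided, with Benjamini-Hochberg adjustment over all probe sets and a threshold of 0.05. SE is limma's moderated standard error. The number of arrays limits the precision. The fit was run on simulated data in which most probe sets did not change and none were selected. That run therefore cannot show how the separation of all probe sets here affects p-values, errors or sizes. The members, lists and tests were chosen with earlier results of these data known. All member genes may be named, and from each list the 6 genes with the largest absolute difference. Mpeg1, Ctss, Col1a1, Pdgfra and Vcam1 are markers named after their values were seen. Srpk2 and Cnot6l are list genes outside that rule, also named after their values were seen. The probe sets of Sf3a2, Rbm7 and Ddx54 end in _s_at or _x_at, so related transcripts can also bind. Alternatives left out each array, used the replicate number as a block, centred arrays, and changed the probe set, filter or moderation. Leaving out an array or centring arrays cannot reverse the direction of a probe set here, because all of them separate the groups.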

Additional observations from a re-analysis of the deposited data

How the results depend on the processing

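Without any 1 array the genes past the threshold numbered 19 to 23 higher and 13 to 15 lower, and the median difference was 0.63 to 0.69 on the log2 scale. Across the other alternatives the counts were 19 to 23 higher and 14 to 17 lower, and the median was 0.63 to 0.85, the highest with arrays centred. Family counts moved by over 1.5 times as follows: Sf3 genes higher numbered 1 to 2 without 1 array and 1 without _s_at and _x_at probe sets; Celf genes higher numbered 0 to 1 and Ddx genes lower 1 to 2 without 1 array; Hnrnp genes higher numbered 0 with the probe set of lowest mean, with the mean of a gene's probe sets, or without genes whose probe sets differ in direction (chosen after seeing the data); and Dhx genes higher numbered 0 without the dimmest 25% of probe sets, which leaves out 5 of the 38 genes. Hnrnpdl turned to -0.80 and Rbm39 to -0.72 with the probe set of lowest mean, and Rbm39 to -0.05 with the mean of probe sets. Of 969 gene values recomputed, 949 kept direction and side of the threshold, 17 lost the threshold and 3 reversed; the cause was not tested. With the replicate number as a block the counts were 23 higher and 15 lower. Deviations of same-numbered arrays correlated at 0.22 and 0.32 over probe sets, but only 2 numbers are shared and the labels tie them to nothing, so they were not taken as pairs. Low signal, a mean under 5 in 1 of the groups, limits Ddx24 and Ddx60 and, among the listed genes named, Papola and Tial1. It also limits the dimmer probe sets of Rbms3, the second probe set of Rbm47, and the markers Mpeg1 and Ctss.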
